A study of Bos taurus with 6 samples.

Results

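TF, TFRC, ALAS2 and HMOX1 are 4 genes that mark successive steps of iron uptake and haem turnover, and their counts were followed through the forebrain, liver and rumen of fetal cattle. They were chosen by name, and all 4 were found among the 14179 gene symbols of the count table. The animals were wild-type male Holstein fetuses of 90 days collected at a slaughterhouse, and poly(A) RNA of each tissue was sequenced in 2 libraries, numbered 1 and 2 within each tissue. All 6 libraries were labelled male and the labels count 2 male fetuses in all, but which fetus gave which library is not stated. A p-value therefore speaks only to how these samples scatter, and that scatter may be technical.

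Iron circulates bound to transferrin, the product of TF, which hepatocytes secrete. Cells take it up through the transferrin receptor, the product of TFRC, which is most abundant on haemoglobin-making red cell precursors and on dividing cells. In those precursors ALAS2, the erythroid form of 5-aminolevulinate synthase, starts haem synthesis in the mitochondrion, whereas ALAS1 does so in other cells. HMOX1, the inducible haem oxygenase, opens the haem ring and frees its iron, and is known from macrophages that clear red cells. The fetal liver is both a source of plasma proteins and a site of red cell formation, and the rumen is the largest forestomach chamber of cattle. Iron regulatory proteins bind hairpins in several of these messengers: binding protects that of TFRC from decay, and blocks translation of those of ALAS2 and the ferritins.

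Total counts ranged from 10271024 to 18528958 per library. Levels are given as CPM, counts brought to a common library size with edgeR's TMM factor, and 1 count was worth between 0.0642 and 0.0813 CPM. The tissues carried their defining markers: neuronal markers summed to at least 11479 CPM in forebrain and at most 388 CPM elsewhere, hepatocyte markers to at least 192030 CPM in liver and at most 136 CPM elsewhere, and markers of stratified epithelium to at least 10643 CPM in rumen and at most 9.44 CPM elsewhere. The liver libraries stood apart from each other. Of the genes with at least 100 counts in a pair of libraries, 8.03% differed more than 4-fold between the liver libraries, against 0.219% in forebrain and 0.0458% in rumen. Results of the 4 genes that rest on liver are therefore given with both liver libraries and, where it matters, without each. Those of other genes are given as means or folds over both, with single liver libraries shown only for some.

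All 4 genes were higher in liver than in forebrain and lower in rumen than in liver, by the quasi-likelihood test of edgeR at an adjusted p under 0.05, with Benjamini-Hochberg adjustment over the 11478 genes tested. Such calls were common in these data. Of all tested genes 57.8% passed between liver and forebrain, made up of 30.5% higher and 27.3% lower in liver. Between rumen and liver 43.0% passed, made up of 21.2% higher and 21.8% lower in rumen. Between rumen and forebrain 41.8% passed, and of the 4 genes TF was lower and HMOX1 higher in rumen, while TFRC and ALAS2 did not pass. Tissues whose libraries did not overlap were more common still. Rumen and forebrain did not overlap in 81.2% of tested genes (39.7% higher and 41.4% lower in rumen), rumen and liver in 69.3% (34.6% higher and 34.6% lower in rumen), and liver and forebrain in 77.9% (40.1% higher and 37.8% lower in liver). The liver comparisons share the liver libraries and are not independent of each other. In such bulk tissue, fewer cells of a type and less RNA per cell cannot be told apart.

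**Figure D1:**
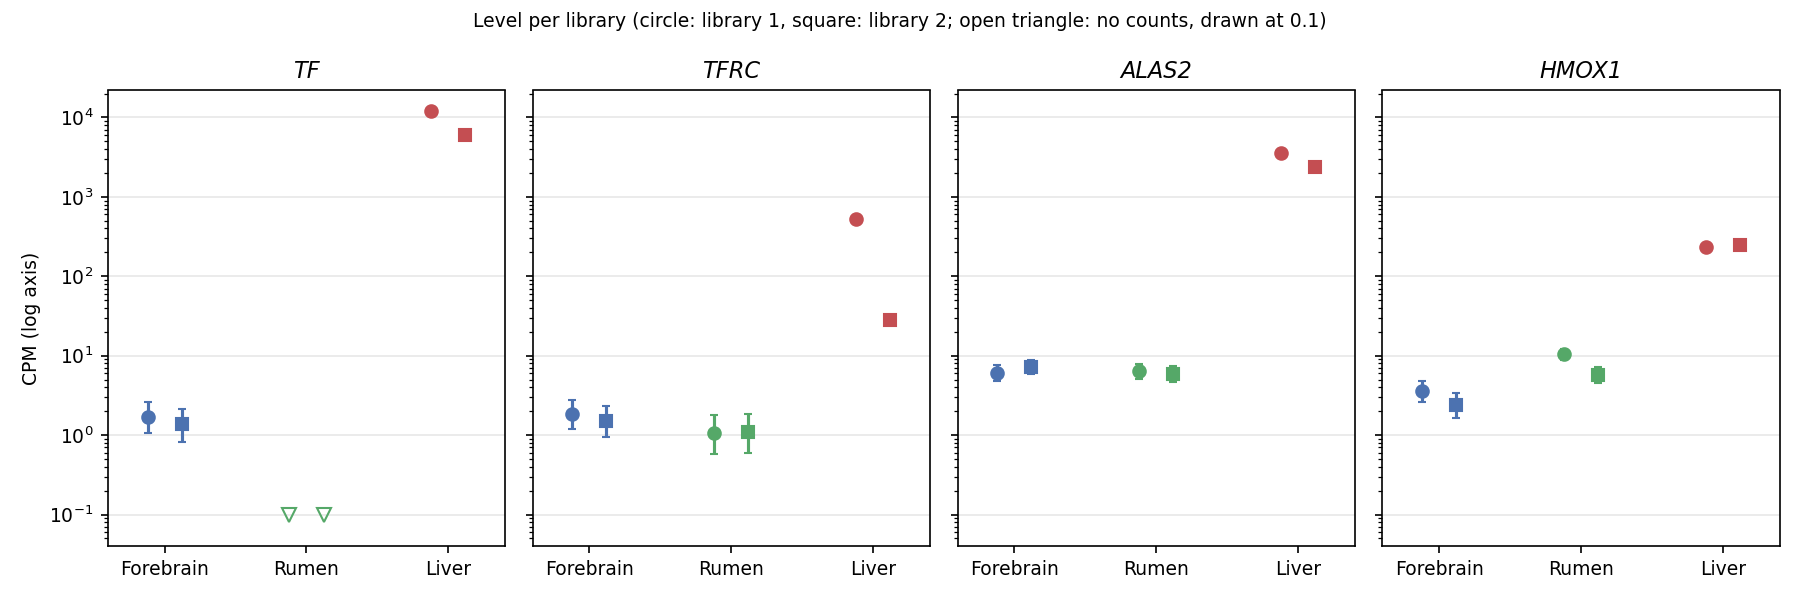
CPM of TF, TFRC, ALAS2 and HMOX1 in each library, on a log axis, with exact Poisson 95% intervals of the counts (many are smaller than the symbols) and open triangles for libraries without counts. Both liver libraries lie above all forebrain and rumen libraries for every gene, and TFRC has the widest gap between the liver libraries, 528 against 28.5 CPM.

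TF was a liver messenger in this series, present at trace level in forebrain and without counts in rumen. Its level was 11935 CPM in Liver 1 and 6076 CPM in Liver 2, or 0.969% (95% exact binomial interval 0.964 to 0.973%) and 0.511% (0.507 to 0.514%) of all counts. In Forebrain 1 and 2 it stood at 1.71 and 1.37 CPM, from 21 and 19 counts, and both rumen libraries had no counts. Intervals and floors here cover counting error only. The means were 9005 ± 4143 CPM in liver and 1.54 ± 0.238 CPM in forebrain (SD, n = 2), and liver was 5843-fold higher (log2 fold change 12.51 ± 0.67 (SE); adjusted p = 5.63e-05, edgeR).

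The absence of TF from rumen gives only a bound. With 3 counts over both rumen libraries as the limit, 0.116 CPM, TF was at least 75834-fold lower in rumen than in liver (adjusted p = 1.00e-04, edgeR) and at least 13.2-fold lower than in forebrain (adjusted p = 0.0400, edgeR). The call between rumen and forebrain was lost when any 1 of their 4 libraries was left out, with adjusted p from 0.0965 to 0.129 by edgeR. It thus rests on 40 forebrain counts in all.

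Albumin, the main plasma protein gene of hepatocytes, moved with TF within the liver. For every 1000 counts of ALB there were 290 counts of TF in Liver 1 and 287 in Liver 2, although TF itself differed 1.96-fold between these libraries in CPM. The hepatocyte markers as a list did not share this difference: 3 of the 8, ALB included, were higher in Liver 1 and 5 in Liver 2. In forebrain TF stood beside 190 and 142 counts of ALB, or 111 and 134 TF counts per 1000. Of the other hepatocyte markers, AFP, AHSG and SERPINA1 had no counts in either forebrain library. The rest had counts in Forebrain 1 and 2: APOA1 1047 and 1676, FGB 13 and 19, TTR 7 and 39, and HNF4A 3 and 5. Rumen held 5 and 13 counts of ALB, too few for a ratio with TF to be read. Of the markers of choroid plexus, a known site of TF expression in brain, OTX2 reached 182 and 102 CPM in Forebrain 1 and 2, but TTR only 0.569 and 2.81 CPM, and KL had no counts. OTX2 is also a patterning gene of the early brain. The part of these cell types in the forebrain TF counts was not tested.

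**Figure D2:**
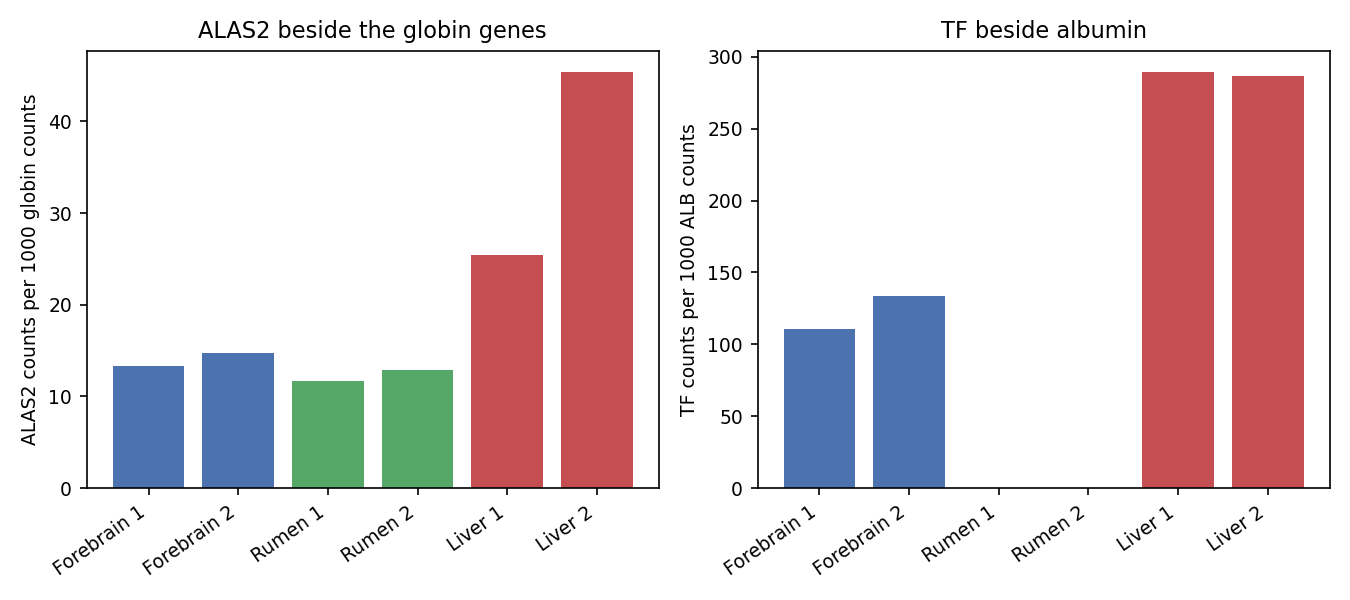
Left, ALAS2 counts per 1000 counts of the 8 globin genes; right, TF counts per 1000 ALB counts, 1 bar per library on linear axes from 0. ALAS2 stands between 11.7 and 14.7 in all forebrain and rumen libraries and at 25.4 and 45.4 in liver, and TF stands at 290 and 287 in the liver libraries.

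TFRC was the least stable of the 4 genes between the liver libraries. It had 7096 counts in Liver 1 and 444 in Liver 2, or 528 CPM (exact Poisson 95% interval 516 to 541) and 28.5 CPM (25.9 to 31.3). In Forebrain 1 and 2 it stood at 1.87 and 1.52 CPM, and in Rumen 1 and 2 at 1.07 and 1.09 CPM. So even the lower liver library lay above every library of the other tissues. Liver averaged 278 ± 353 CPM (SD, n = 2), with an SD larger than the mean, and was 164-fold higher than forebrain (log2 fold change 7.36 ± 1.48 (SE); adjusted p = 0.00552, edgeR).

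The size of that difference depended on the liver library used. Without Liver 1 the log2 fold change of liver over forebrain was 4.07, and without Liver 2 it was 8.28. The call ended without Forebrain 2 (adjusted p = 0.0519, edgeR). TFRC was 255-fold lower in rumen than in liver (log2 fold change -7.99 ± 1.56 (SE); adjusted p = 0.00710, edgeR), with a log2 fold change of -4.71 without Liver 1 and of -8.92 without Liver 2. This call ended without Rumen 1 or Rumen 2, at adjusted p = 0.0659 and 0.0657 by edgeR.

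Between rumen and forebrain TFRC did not pass the test. Rumen averaged 1.08 ± 0.0150 CPM and forebrain 1.69 ± 0.251 CPM (SD, n = 2), and the log2 fold change was -0.64 ± 2.08 (SE; adjusted p = 0.836, edgeR). The error of this estimate is wide because 1 spread per gene is shared by all tissues, liver included. With only the 4 forebrain and rumen libraries in the fit the log2 fold change was -0.61 ± 0.67 (SE), which did not pass either. The libraries of the 2 tissues did not overlap. The proliferation markers in the table (5 of 8 listed) summed to 110 and 114 CPM for Forebrain 1 and 2, 329 and 366 CPM for Rumen 1 and 2 and 1077 and 957 CPM for Liver 1 and 2. Their part in the TFRC levels was not tested.

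ALAS2 was steadier, with 3599.9 CPM in Liver 1 and 2411 CPM in Liver 2. The other 4 libraries lay close together, at 6.10 and 7.29 CPM in Forebrain 1 and 2 and at 6.35 and 5.85 CPM in Rumen 1 and 2. The forebrain and rumen libraries overlapped. Liver, at 3005 ± 841 CPM (SD, n = 2), was 447-fold higher than forebrain (log2 fold change 8.81 ± 0.38 (SE); adjusted p = 1.57e-05) and 492-fold higher than rumen (adjusted p = 3.48e-05, both by edgeR). Rumen and forebrain differed by a log2 fold change of -0.14 ± 0.34 (SE; adjusted p = 0.781, edgeR), which turned to 0.03 without Forebrain 2. These calls for liver held with either liver library left out.

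The red cell genes moved with ALAS2. The 8 globin genes together took 11.5% of counts in Liver 1 and 4.46% in Liver 2, and between 0.0487 and 0.0558% in each forebrain and rumen library. Relative to globins, ALAS2 stood at 13.3 and 14.7 counts per 1000 in forebrain, 11.7 and 12.9 in rumen, and 25.4 and 45.4 in liver. The liver libraries were thus higher in this ratio than the others, and the one with fewer globin counts had the higher ratio. Globin genes have near-identical copies, so their counts are uncertain between copies.

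Defining genes of red cell precursors were at or near 0 outside liver. GATA1, a master factor of the erythroid lineage, had 0 and 2 counts in Forebrain 1 and 2 and none in rumen, against 302 and 232 CPM in Liver 1 and 2. KLF1, the erythroid Krüppel-like factor, had 4 and 0 counts in forebrain and 0 and 1 in rumen, against 724 and 974 CPM in liver. The whole erythroid list (12 of 15 listed genes in the table) summed to between 452 and 542 CPM in forebrain and rumen, nearly all of it globin, and to 146457 and 56286 CPM in Liver 1 and 2. The ALAS2 counts in forebrain and rumen therefore came with globin counts and with hardly any counts of the erythroid factors. The part of blood in them was not tested.

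HMOX1 was the gene with the closest agreement between liver libraries and the only one of the 4 that was higher in rumen than in forebrain. It stood at 237 and 247 CPM in Liver 1 and 2. Rumen 1 and 2 had 10.4 and 5.77 CPM, and Forebrain 1 and 2 had 3.58 and 2.38 CPM. The 3 tissues did not overlap, with forebrain lowest, rumen next and liver highest. Liver was 81.6-fold above forebrain (log2 fold change 6.35 ± 0.39 (SE); adjusted p = 3.86e-05) and 29.9-fold above rumen (adjusted p = 0.000132, both by edgeR).

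The smaller difference of HMOX1, 2.73-fold between rumen and forebrain, was less secure. The means were 8.09 ± 3.28 and 2.98 ± 0.846 CPM (SD, n = 2), and the log2 fold change was 1.45 ± 0.39 (SE; adjusted p = 0.0246, edgeR). It no longer passed without Forebrain 1, Forebrain 2 or Rumen 1 (adjusted p = 0.0803, 0.172 and 0.153, edgeR), and Rumen 1 was the higher rumen library. It passed without Rumen 2 (adjusted p = 0.0286, edgeR) and without either liver library.

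Macrophage markers summed lower in rumen than in forebrain, with single genes called in both directions. The list (8 of 10 listed genes in the table) summed to 55.4 and 84.7 CPM in Forebrain 1 and 2 and to 30.4 and 30.6 CPM in Rumen 1 and 2. Of its 8 genes C1QB and CSF1R were lower in rumen than in forebrain, TIMD4 was higher, and 5 did not pass the test. Over all tested genes 21.5% were lower and 20.3% higher in rumen than in forebrain. C1QB was 3.31-fold lower (adjusted p = 0.0216) and CSF1R 2.58-fold lower (adjusted p = 0.0385, both by edgeR). TIMD4, a receptor of tissue macrophages, had no counts in forebrain and only 12 and 27 in Rumen 1 and 2, at least 13.1-fold higher in rumen (adjusted p = 0.02497, edgeR). In liver the whole list summed to 1016 and 416 CPM, a fall from Liver 1 to Liver 2 that HMOX1 did not share. CD163, the macrophage receptor for haemoglobin bound to haptoglobin, is not on that list and lay higher in rumen, at 2.07 and 2.26 CPM against 0.163 and 0.144 CPM in forebrain. The part of macrophages in the HMOX1 difference was not tested.

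**Figure D3:**
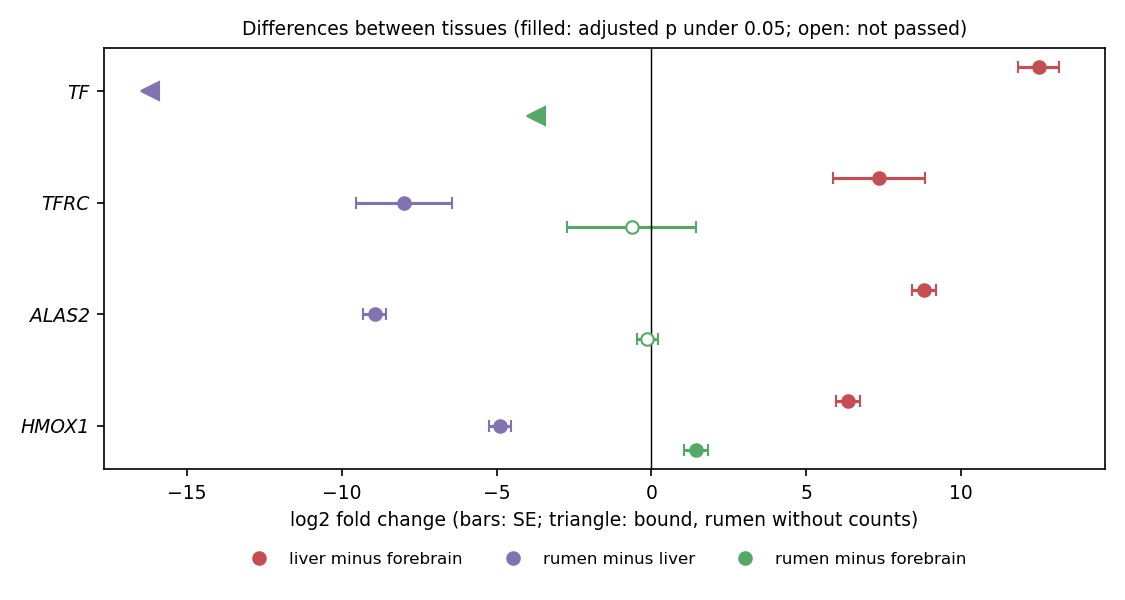
Log2 fold changes of the 4 genes in the 3 comparisons with SE bars, filled where the adjusted p was under 0.05 and open where not, and triangles at the bound for TF where rumen had no counts. The bars of TFRC are wide, 7.36 ± 1.48 for liver over forebrain and -0.64 ± 2.08 for rumen minus forebrain, and HMOX1 is the only gene higher in rumen than in forebrain.

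The liver pair was compared gene by gene as a description, since 1 library on each side allows no test. Of the 4 genes only TFRC differed more than 4-fold between Liver 1 and Liver 2, by 18.5-fold. TF differed 1.96-fold and ALAS2 1.49-fold, both higher in Liver 1, and HMOX1 1.04-fold, higher in Liver 2. Among 9069 genes with at least 100 liver counts, 4.76% were more than 4-fold higher in Liver 1 and 3.26% more than 4-fold higher in Liver 2, and only 20 had a larger ratio in favour of Liver 1 than TFRC. TFRC therefore lay at the edge of a broad spread.

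Of other genes known to have messengers with iron-responsive hairpins, 4 lay close together in the liver libraries, whereas ALAS2 differed 1.49-fold. FTH1 and FTL, the heavy and light ferritin chains that store iron, stood at 8291 and 7843 CPM and at 2574 and 2689 CPM in Liver 1 and 2. SLC40A1, the iron exporter ferroportin, had 508 and 424 CPM. SLC11A2, an importer of ferrous iron, had 101 and 105 CPM. These 4 genes were within 1.20-fold between the liver libraries, and so was HAMP, the liver hormone hepcidin that limits iron release, at 196 and 207 CPM. For ALAS2 and the ferritins such binding blocks translation, which counts of the messenger cannot show. Any part of iron regulatory proteins in the TFRC difference was not tested.

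Haem synthesis genes were split between the liver libraries. Of the 11 in the table, 5 were higher in Liver 1 and 6 in Liver 2, and 2 of them differed more than 4-fold. CPOX, coproporphyrinogen oxidase, had 407 CPM in Liver 1 and 42.1 CPM in Liver 2, in the direction of TFRC. UROS, uroporphyrinogen III synthase, had 229 and 1244 CPM, in the other direction. FECH, which inserts iron into haem, was 3.14-fold higher in Liver 1, at 852 and 272 CPM. In iron uptake the other gene past 4-fold was CYBRD1, a ferric reductase, with 12.5 and 1.16 CPM. CPOX, UROS and CYBRD1 were named after their values were seen.

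Marker lists of the liver pair moved unevenly. All 8 macrophage and all 6 endothelial markers with enough counts were higher in Liver 1, with median log2 ratios of 0.95 and 0.79 against 0.00343 over all genes. Of the 12 erythroid markers 9 were higher in Liver 1, with a median log2 ratio of 0.72, among them the membrane anion exchanger SLC4A1, 4.92-fold higher. GATA1, KLF1 and EPOR stayed within 1.35-fold. Proliferation markers had 3 of 5 higher in Liver 1. The part of any of these cells in the TFRC difference was not tested.

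**Figure D4:**
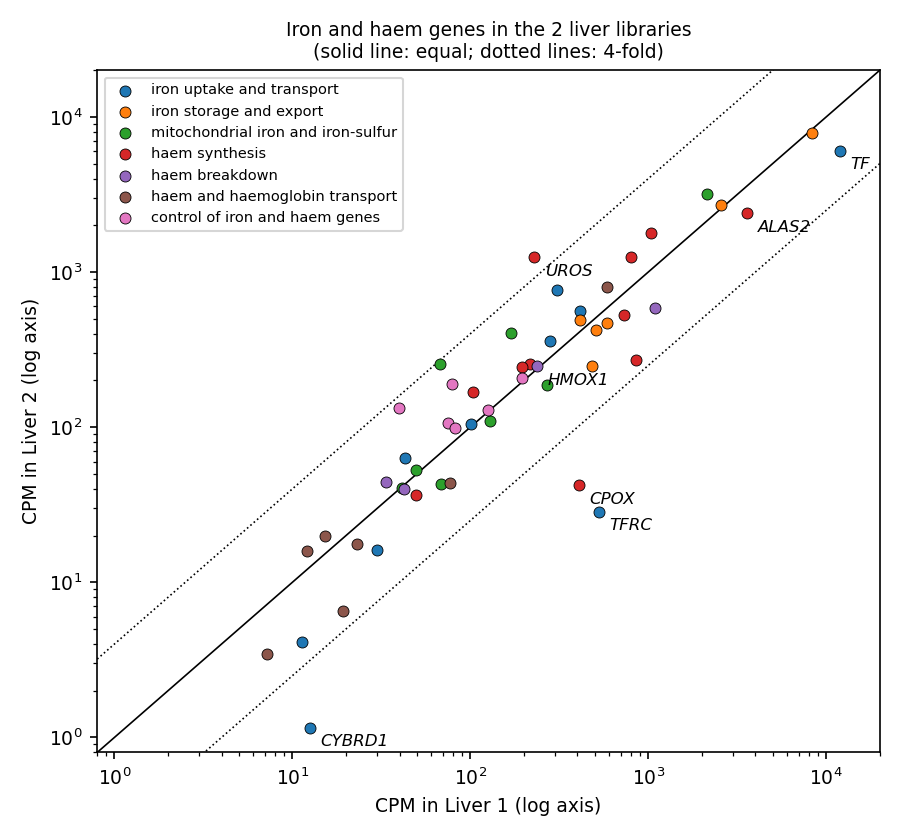
CPM in Liver 2 against CPM in Liver 1 for the iron and haem genes with at least 100 liver counts, on log axes, coloured by role, with a solid line of equality and dotted lines at 4-fold. TFRC, CPOX and CYBRD1 lie beyond 4-fold on the side of Liver 1, UROS on the side of Liver 2, and TF, ALAS2 and HMOX1 lie between the dotted lines.

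The wider set of iron and haem genes held 66 names in 7 roles, of which 57 were in the table and 53, the 4 genes included, had enough counts to be tested. Between liver and forebrain 41 were higher in liver and 2 lower, with a median log2 fold change of 1.96 against 0.14 over all tested genes, of which 30.5% were higher and 27.3% lower. The higher members numbered 40 without Liver 1, 45 without Liver 2, 30 without Forebrain 1, 28 without Forebrain 2, and 32 with scaling by total counts only. Between rumen and liver 37 were lower in rumen and 1 higher, with a median of -2.49 against -0.06 over all tested genes, of which 21.8% were lower and 21.2% higher. The lower members numbered 40 without Liver 1, 41 without Liver 2, 30 without Rumen 1 and 29 without Rumen 2, and the higher ones 3 without Liver 1, 4 without Liver 2 and 0 without Rumen 1 or Rumen 2.

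Between rumen and forebrain the set was divided, with 13 members higher in rumen, 10 lower and 30 that did not pass, and a median log2 fold change of -0.32. These shares, of 53, compare with 20.3% of all tested genes higher and 21.5% lower. The counts depended on single libraries. There were 2 higher and 3 lower without Forebrain 1, 2 and 4 without Forebrain 2, 5 and 3 without Rumen 1, 6 and 5 without Rumen 2, and 14 and 18 without Liver 1 or Liver 2. BLVRB and SLC25A37 were the members higher in rumen that passed without each of the 6 libraries in turn, and TFR2, GLRX5 and FLVCR2 those lower.

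In iron uptake, 8 of 11 tested genes were higher in liver than in forebrain and 8 lower in rumen than in liver. Over all tested genes these shares were 30.5% and 21.8%. TFR2, the second transferrin receptor, which senses iron in hepatocytes and red cell precursors, stood at 488 ± 102 CPM in liver, but only 3.37 ± 0.987 in forebrain and 0.464 ± 0.00643 in rumen (SD, n = 2), and passed in all 3 comparisons. Unlike TFRC it differed by only 1.35-fold between the liver libraries, with Liver 2 the higher. STEAP3, which reduces the iron that transferrin delivers to endosomes, was 69.0-fold higher in liver than in forebrain and 1.95-fold higher in rumen than in forebrain (adjusted p = 0.0309, edgeR). SLC11A2, which carries that iron out of the endosome, was 1.63-fold higher in liver than in forebrain (adjusted p = 0.0358, edgeR), at 103 ± 2.99 against 62.9 ± 5.74 CPM, and 2.68-fold lower in rumen than in forebrain (adjusted p = 0.00417, edgeR), at 23.5 ± 4.59 CPM (SD, n = 2). The call of SLC11A2 between liver and forebrain ended with total-count scaling, with only the 4 libraries compared and with the replicate block, and so did that of FTH1. That of SLC11A2 also ended with DESeq2 scaling and without globins and 4 plasma proteins. The call of STEAP3 between rumen and forebrain ended with total-count scaling and with the replicate block.

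In storage and export, 4 of 6 tested genes were higher in liver than in forebrain, against 30.5% of all tested genes. SLC40A1 had 466 ± 59.0 CPM in liver, 44.8 ± 0.853 in rumen and 25.1 ± 0.550 in forebrain (SD, n = 2), and each step passed the test. FTL was 3.03-fold higher in liver than in forebrain and 2.53-fold higher than in rumen. FTH1 was highest in liver, at 8067 ± 317 CPM, followed by forebrain at 4176 ± 663 and rumen at 2211 ± 290 CPM (SD, n = 2). It was 1.89-fold lower in rumen than in forebrain (adjusted p = 0.0450, edgeR), a call that ended with the replicate block. NCOA4, the receptor that sends ferritin to the lysosome, was 1.92-fold lower (adjusted p = 0.0108, edgeR). NCOA4 was also 4.95-fold lower in rumen than in liver. PCBP2, an RNA-binding protein that also chaperones iron, was the only member higher in rumen than in liver, 1.55-fold (adjusted p = 0.0411, edgeR). The call ended with edgeR's older quasi-likelihood test, with only the 4 libraries compared and with the replicate block. PCBP2 was also 1.76-fold higher in rumen than in forebrain. CP, the plasma ferroxidase ceruloplasmin, had 11, 19 and 4 counts over both libraries of forebrain, liver and rumen and was not tested.

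Carriers of iron into mitochondria were the members most raised in rumen over forebrain after BLVRB and CD163. SLC25A37, mitoferrin 1 of red cell precursors, had 19.2 ± 5.89 CPM in forebrain, 98.4 ± 1.80 in rumen and 2656 ± 718 in liver (SD, n = 2), and passed in all 3 comparisons. SLC25A28, its widely expressed relative mitoferrin 2, was 5.31-fold higher in rumen than in forebrain (adjusted p = 0.0140, edgeR). GLRX5, an iron-sulfur cluster protein, went the other way, 3.93-fold lower in rumen than in forebrain and 7.18-fold lower than in liver. ABCB6, a porphyrin transporter, was 8.32-fold higher in liver than in forebrain, at 168 CPM in Liver 1 and 404 CPM in Liver 2.

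Haem synthesis was the role in which liver differed most evenly. All 11 tested genes were lower in rumen than in liver, against 21.8% of all tested genes. In liver over forebrain 10 were higher, against 30.5% of all tested genes. By edgeR 0 went the other way in either comparison, also at an unadjusted p under 0.05 and by DESeq2. ALAD, the enzyme after ALAS2 in the pathway, was 76.8-fold higher in liver than in forebrain, FECH, the last enzyme, 75.9-fold, and SLC25A38, which supplies mitochondrial glycine, 2.85-fold. FECH was 74.9-fold lower in rumen than in liver.

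The exception was ALAS1, the housekeeping counterpart of ALAS2. It had 43.2 ± 9.28 CPM in liver, 40.1 ± 4.79 in forebrain and 16.0 ± 6.29 in rumen (SD, n = 2), and liver and forebrain did not pass the test (log2 fold change 0.11 ± 0.34 (SE); adjusted p = 0.802, edgeR). It was 2.51-fold lower in rumen than in forebrain (adjusted p = 0.0233, edgeR) and 2.70-fold lower than in liver. The call of ALAS1 between rumen and liver ended with only the 4 libraries compared. Between rumen and forebrain, where 41.8% of all tested genes passed, 9 of the 11 haem synthesis genes did not, ALAS2 and FECH among them. ALAD was the only one higher in rumen, 3.60-fold (adjusted p = 0.00513, edgeR).

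Of the haem breakdown genes 3 of 4 were higher in rumen than in forebrain, where 20.3% of all tested genes were higher, and 0 were lower by edgeR, also at an unadjusted p under 0.05 and by DESeq2. Without Forebrain 1, Forebrain 2 or Rumen 1 only 1 of the 4, BLVRB, passed, as HMOX1 and BLVRA did not. After HMOX1 opens the ring, biliverdin reductases make bilirubin. BLVRB, the reductase abundant in red cells, had 14.8 ± 3.73 CPM in forebrain, 91.3 ± 0.811 in rumen and 839 ± 359 in liver (SD, n = 2), 6.17-fold higher in rumen than in forebrain (adjusted p = 0.00178, edgeR). BLVRA, the main reductase of adult tissues, was 2.28-fold higher in rumen (adjusted p = 0.0246, edgeR) and 3.89-fold higher in liver than in forebrain. Relative to globins BLVRB stood far higher in rumen, at 169 and 200 counts per 1000 globin counts, than in forebrain, at 26.4 and 35.1, or in liver, at 7.72 and 11.0.

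HMOX2, the constitutive haem oxygenase, did not share the pattern of HMOX1. It was 2.02-fold lower in liver than in forebrain (adjusted p = 0.0140, edgeR), at 39.0 ± 7.59 against 78.9 ± 6.98 CPM (SD, n = 2), a call that ended without Forebrain 1 or Forebrain 2. Rumen lay between them at 58.0 ± 10.2 CPM and did not pass against either. It passed as higher in rumen than in liver with total-count scaling or without Liver 2, and as lower in rumen than in forebrain without Liver 1, without Liver 2 or with only the 4 libraries compared.

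In haem and haemoglobin transport, 5 of 7 tested genes were higher in liver than in forebrain and 5 lower in rumen than in liver. The shares of all tested genes were 30.5% and 21.8%. HPX, hemopexin, which binds free haem in plasma, stood at 694 ± 153 CPM in liver, had 9 counts in forebrain and none in rumen, at least 6053-fold lower there than in liver (SD, n = 2). HP, haptoglobin, which binds free haemoglobin, was low even in liver at 12.9 ± 8.95 CPM (SD, n = 2), with 2 counts in forebrain and none in rumen, at least 107-fold lower in rumen than in liver. CD163 was 371-fold higher in liver than in forebrain and 13.4-fold higher in rumen than in forebrain (adjusted p = 0.00842, edgeR), from only 4 forebrain counts. FLVCR1, a haem exporter, had 5.34 ± 2.65 CPM in liver, 1.73 ± 0.200 in forebrain and 0.851 ± 0.121 in rumen (SD, n = 2). Its difference between liver and forebrain passed only narrowly (adjusted p = 0.0490, edgeR). The call for FLVCR1 was lost under all 8 other settings of the processing, the replicate block included. FLVCR2, its relative known from brain vessels, had 119 counts in forebrain and 1 in rumen, but was highest in liver. It had 14.0 ± 2.68 CPM in liver and 4.55 ± 0.00483 in forebrain (SD, n = 2). Liver was 3.09-fold higher than forebrain (adjusted p = 0.0149, edgeR), a call that ended with total-count scaling. SLC48A1, a haem transporter of endosomes, was 1.94-fold lower in rumen than in forebrain (adjusted p = 0.0348, edgeR), a call that ended with the replicate block.

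Among control genes, HAMP stood at 201 ± 8.18 CPM in liver (SD, n = 2) without counts in forebrain, at least 1759-fold higher in liver, and its 10 rumen counts all lay in Rumen 2. HJV, hemojuvelin, a coreceptor that raises HAMP, had 2600 counts in liver, 2 in forebrain and none in rumen. It stood at 39.8 CPM in Liver 1 and 133 CPM in Liver 2. ACO1, the iron regulatory protein 1, was 2.61-fold higher in liver and 2.43-fold higher in rumen than in forebrain. NFE2L2, the factor that activates HMOX1 under oxidative stress, was 3.30-fold higher in liver (adjusted p = 0.00970) and 2.64-fold higher in rumen (adjusted p = 0.0291) than in forebrain, both by edgeR. Rumen and liver did not pass for NFE2L2 (log2 fold change -0.32 ± 0.39 (SE); adjusted p = 0.532, edgeR). It differed 2.38-fold between the liver libraries, at 79.4 CPM in Liver 1 and 189 CPM in Liver 2. In Rumen 1 and 2 it stood between these, at 109 and 107 CPM, so the direction depended on the liver library. Its call between rumen and forebrain ended without any 1 of their 4 libraries, and that between liver and forebrain without either forebrain library. Any part of NFE2L2 in the HMOX1 levels was not tested. FBXL5, which removes the other iron regulatory protein when iron is plentiful, was 2.50-fold lower in liver and 2.10-fold lower in rumen than in forebrain. IREB2 and BACH1 were not analysed here.

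**Figure D5:**
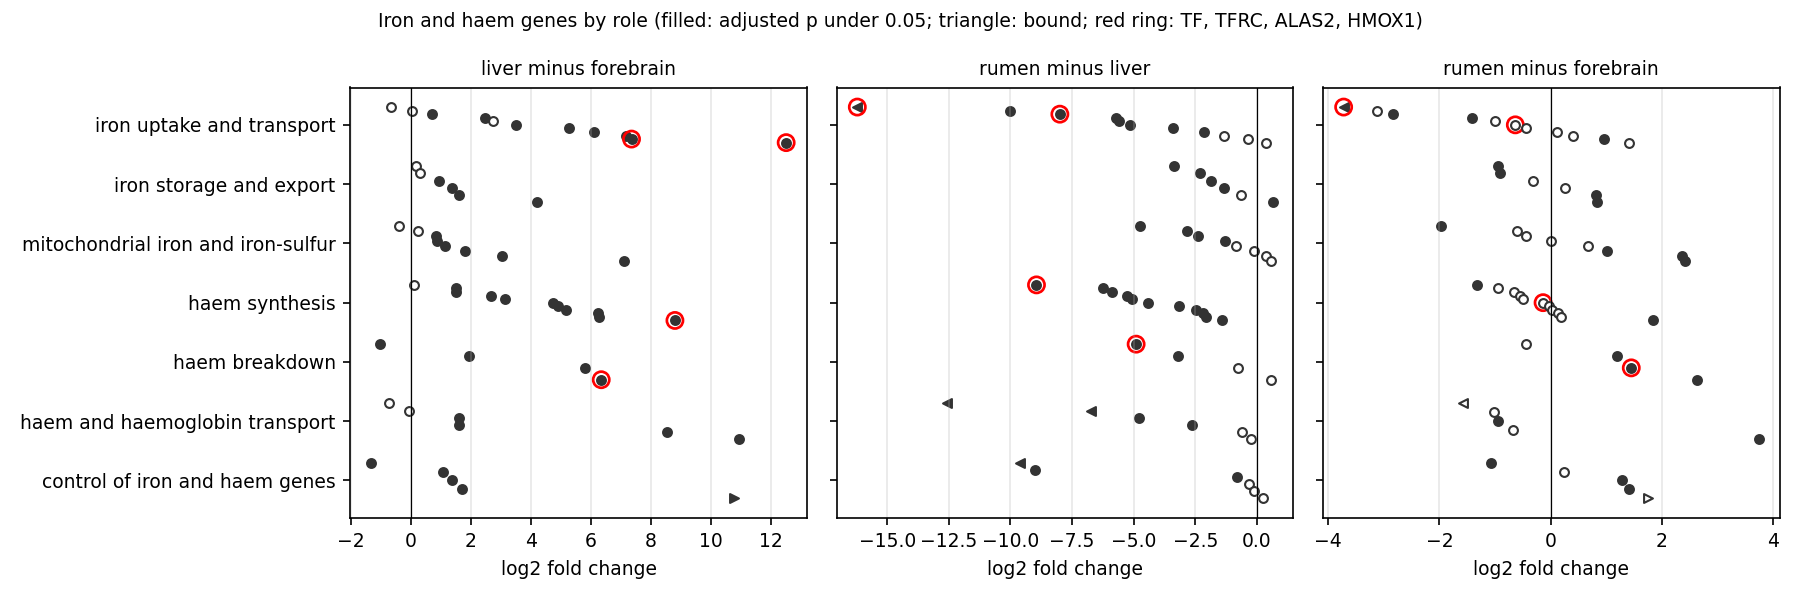
Log2 fold changes of the tested iron and haem genes by role in the 3 comparisons, filled where the adjusted p was under 0.05, with triangles at the bound where a tissue had no counts and red rings around TF, TFRC, ALAS2 and HMOX1; differences that rest on 1 to 3 counts in a tissue are left out, and each panel has its own axis. All haem synthesis genes lie to the left in rumen minus liver, and 3 of 4 haem breakdown genes lie to the right in rumen minus forebrain.

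The genes most like each of the 4 were those with the highest Pearson correlation of log2 CPM over the 6 libraries, with 2 counts added. These correlations only describe the libraries, which fall into 3 tissues, so that values near 1 are common. For TFRC the closest were TUBB1 (0.9994), a tubulin of platelets and their precursors, TRAK2 (0.9985), a mitochondrial adaptor, and EPB41 (0.9984), the red cell membrane protein 4.1. These 3 shared the fall from Liver 1 to Liver 2, at 213 and 14.6 CPM for TUBB1, 247 and 47.9 CPM for TRAK2 and 403 and 43.5 CPM for EPB41. Only 22 of 11477 genes correlated above 0.99 with TFRC, against 194 with ALAS2, 46 with HMOX1 and 43 with TF.

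For ALAS2 the closest were CIDEC, C9 and FAM180B (each 0.9997), all 3 without counts in forebrain and rumen. C9 is a complement protein made by hepatocytes, so a likeness over these 6 libraries does not separate cell types within liver. For HMOX1 they were ALDH4A1 (0.9982), a mitochondrial enzyme of proline breakdown, ATF7IP (0.9977) and SHANK3 (0.9972). For TF they were CLEC4A (0.9996), RRM1 (0.9986) and RMDN3 (0.9984), of which CLEC4A rested on 16 counts in each liver library and 1 in each forebrain library.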

How the data were processed

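Raw counts per gene symbol were deposited by the authors, 1 column per library and unscaled (0 columns without a sample). The submitters' processing notes name HISAT2 2.0.5, featureCounts 1.5.0-p3 and edgeR 3.18.1. The sources used here do not give the genome build, annotation or strand setting. In the RefSeq gene table (ARS-UCD2.0, used for names and neighbours only) no gene overlaps the 4 genes. TF is also an older name of F3, which has its own row in the counts.

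The test was the quasi-likelihood test of edgeR 4.0.16 in R 4.3.3 (filterByExpr, TMM, small-count adjustment, 1 mean per tissue, no block, 3 residual degrees of freedom). This version of the test was chosen over the older one after results of both were seen, to match earlier processing of these data, and the older one is given as an alternative. Folds are those fitted by edgeR with its prior count, and SE is the log2 fold change over the root of F. Against a tissue with 0 counts only a lower limit of the fold is given, from the summed counts of the other tissue and a limit of 3 counts over the 2 empty libraries. Alternatives used DESeq2 1.42.0, other scalings, filters, samples and the replicate block. Scripts were tested on simulated data. The 4 genes and all lists were chosen with earlier results of these data known. Always named were the 4 genes and 23 others of the list, the 2 called genes with the largest change per role and direction, and the 3 genes most correlated with each of the 4.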

Additional observations from a re-analysis of the deposited data

How the results depend on the processing

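The 4 genes gave 12 results, and all 96 values under 8 other settings (DESeq2 scaling, total counts only, without globins and 4 plasma proteins, no filter, edgeR's older quasi-likelihood test, which was chosen after seeing the data, DESeq2, only the 4 libraries compared, and the replicate block) kept direction and side of the threshold. Of 72 values with 1 library left out, 61 did so, 10 no longer passed and 1 changed sign. Such fits have fewer samples. The log2 fold changes then ranged for rumen minus forebrain from -7.52 to -7.24 (TF), -0.23 to 0.031 (ALAS2, 0.031 without Forebrain 2) and 0.96 to 1.84 (HMOX1), for TFRC from -8.92 to -4.71 in rumen minus liver and from 4.07 to 8.28 in liver minus forebrain. Genes higher and lower, 2329 and 2473 in rumen minus forebrain, ranged from 1001 to 3621 and 1119 to 3843, and were 3681 and 3734 with only the 4 libraries compared. In rumen minus liver, 2434 and 2507, they ranged from 1333 to 3481 and 1105 to 3792, and in liver minus forebrain, 3499 and 3133, from 1954 to 4398 and 2036 to 3993. Iron and haem members higher and lower ranged from 2 to 14 and 3 to 18 in rumen minus forebrain, with 16 lower in only the 4 libraries. In rumen minus liver the higher member, PCBP2, ranged from 0 to 4 members, was 3 with total counts only, and 0 with the older test, with only the 4 libraries and with the replicate block. In liver minus forebrain the lower members ranged from 1 to 4 and were 4 with total counts only. The cause was not tested. Total counts only moved the median log2 fold change of all genes from 0.14 to -0.34 in liver minus forebrain (52.8 to 39.2% of calls higher), and from -0.06 to 0.23 in rumen minus liver (49.3 to 62.2%). SLC11A2 and FTH1 in liver over forebrain did not pass with total counts only, only the 4 libraries compared or the replicate block. SLC11A2 also did not pass with DESeq2 scaling or without globins and 4 plasma proteins. STEAP3 in rumen over forebrain did not pass with total counts only or the replicate block. The labels do not say that shared replicate numbers mark a fetus, and deviations of same-numbered libraries correlated at -0.0585, -0.00177 and 0.0754, so the replicate block is only an alternative. With it the iron and haem members numbered 12 higher and 8 lower in rumen minus forebrain (STEAP3, FTH1 and SLC48A1 lost), 37 lower in rumen minus liver and 38 higher in liver minus forebrain. With 2 libraries per tissue, genes with few counts such as TF in forebrain set the limit.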
